A study of Mus musculus with 1 sample.

Results

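Il7r, Tcf7, Lef1, Ccr7, Bcl2, Id2, Id3 and S1pr1 are 8 genes linked to naive and memory T cells, out of 32285 genes counted in the library. They were chosen by name with earlier results of these data known, and the values that selected them are the same UMI counts (counts of unique molecular identifiers, or distinct RNA molecules) that are described here, so the levels are a description and carry no test. The library held cells of 5 MC38 tumors, a mouse colon adenocarcinoma line, grown in C57BL/6J mice, which the study bought as females of 4 to 6 weeks. The cells of the tumors were mixed in equal parts and sequenced with the 10x Genomics 3' v3.1 kit. The label gives the genotype WT and no shRNA, the study's methods describe the control pool as MC38 cells with the shNTC hairpin, and the pool with the knockdown hairpin was not analysed here. No cell can be traced to a mouse, so 1 library stood for all 5 tumors, there was no replicate, and every interval in parentheses is an exact 95% interval of counting error only.

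Naive and memory T cells last for long in the body because they rest, answer to interleukin 7 and keep the power to divide. Il7r is the receptor chain for interleukin 7, Bcl2 holds back cell death downstream of it, and Tcf7 and Lef1 are sister transcription factors that keep T cells in a naive or stem-like state. Ccr7 and S1pr1 are receptors that guide cells into lymph nodes and out again, and Id2 and Id3 block the DNA binding of E proteins, with Id2 best known from effector cells and Id3 from memory precursors. None of the 8 genes is private to T cells: macrophages, dendritic cells, endothelium and tumor cells are known to use several of them.

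After filters, 4443 of 5307 called cells were kept, with a median of 10402 UMIs. The lymphoid cells, called T and NK-like, numbered 168 (median depth 4075 UMIs) and made up 3.78% of the cells and 0.866% of the UMIs. Of these 168, 58 formed a low-depth subcluster (median 955 UMIs) that goes against the class name: it was led by mast and B-cell genes (Mcpt2, Cpa3, Cd79a), 17 of its cells had a UMI of Cd3d, Cd3e, Cd3g or Trac, and 29 had no UMI of these, of Trbc1 or Trbc2, or of a listed NK gene. Without it, 110 cells remained in the class, and their levels lay outside the counting interval of the reported ones for Ccr7 and Bcl2, whose values without it stand beside theirs. The 1585 myeloid-like cells gave 16.6% of the UMIs, and the 1729 tumor-like cells (median 40634 UMIs) gave 80.2%. The remaining 961 cells, among them endothelial-like, fibroblast-like and low-depth cells, gave 2.35%. Genes outside the list show how far apart the classes lie. Trac and Rhox5 were among the markers that named the classes, so their levels are no check of the names. Trac, a constant part of the T-cell receptor, was 1234 times higher in T and NK-like than in myeloid-like cells (622 to 2874), and Rhox5, a gene of this tumor line, was at 0.0787 times its tumor-like level in T and NK-like cells (0.0574 to 0.105).

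Most of the UMIs of each of the 8 genes lay outside the T and NK-like cells. The T and NK-like share was highest for Bcl2, with 289 of 1281 UMIs or 22.6% (20.3 to 25), followed by Id2 with 648 of 5908 or 11% (10.2 to 11.8). It was 9.62% for Ccr7 (4.71 to 17.0), 8.16% for Lef1 (5.24 to 12.0) and 7.73% for Il7r (6.19 to 9.52), values whose intervals overlapped. Tcf7 followed with 4.06% (2.59 to 6.02), S1pr1 with 3.79% (1.91 to 6.69) and Id3 with 2 of 4268 UMIs or 0.0469% (0.00568 to 0.169). The share counts molecules, and deep cells weigh more in it: when every cell was given the same weight, the T and NK-like share was 56% for Bcl2, 42.7% for Ccr7, 29.5% for Lef1 and 25.6% for Tcf7, and the tumor-like share of Tcf7 was 49.9%, of Id3 47.2%, of Lef1 34.1%, of Bcl2 8.94% and of S1pr1 8.87%. With cells thinned to 1000 UMIs, the lymphoid share of Ccr7 was 58.3%.

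**Figure D1:**
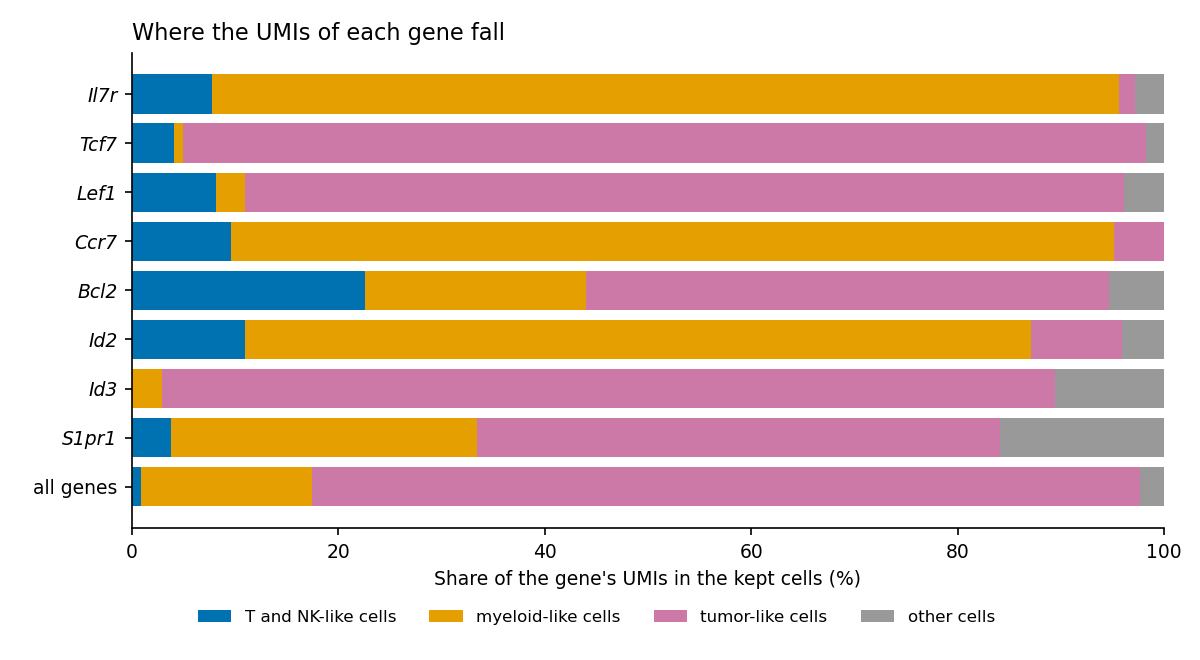
Bars give the share of each gene's UMIs (horizontal axis, %) in T and NK-like, myeloid-like, tumor-like and other cells, with all genes together as the lowest bar. The tumor-like share is 93.3% for Tcf7 and 86.5% for Id3, the myeloid-like share is 87.9% for Il7r, and the T and NK-like share is highest for Bcl2, at 22.6%.

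By level, the order was another one. Levels are UMIs of a gene per 1000000 UMIs of a cell group (CPM), which puts groups of unlike depth on the same scale. Deep cells still weigh more within a group. As a mean over T and NK-like cells, Bcl2 was at 619 CPM in place of 354, Ccr7 at 34.1 in place of 12.2 and Id2 at 645 in place of 793. For 7 of the 8 genes the level in T and NK-like cells was at least 2 times that of all other kept cells pooled, as it was for 16.5% of the 15218 genes with at least 10 UMIs, and nothing is read from this since the same counts chose the genes. The median ratio was 9.88 over the 8 genes and 0.747 over all genes tested. Id3 was the exception.

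Marker genes of 1 cell class also turned up at low levels in the others, which sets the scale for free RNA or mixed cells. The 10 T-cell markers, none of them a member, had in tumor-like cells a median of 0.0568% of their T and NK-like level, and 0.138% in myeloid-like cells. Myeloid markers in tumor-like cells stood at a median of 0.561% of their myeloid-like level. Tumor markers in T and NK-like cells were at a median of 8.78% of their tumor-like level (range 4.75 to 14.2%), the highest of these shares. The values are set beside the members below.

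The promoters of Il7r and Id3 are shown because their UMIs lay in different cells, those of Il7r mostly in myeloid-like and those of Id3 mostly in tumor-like cells. Sequences are the RefSeq windows of 300 bases on GRCm38.p6, from 250 bases before to 50 after the start, for 6 of the 8 genes that matched by symbol, and capitals mark each CG pair.
Il7r, chr15:9529827-9530126, minus strand: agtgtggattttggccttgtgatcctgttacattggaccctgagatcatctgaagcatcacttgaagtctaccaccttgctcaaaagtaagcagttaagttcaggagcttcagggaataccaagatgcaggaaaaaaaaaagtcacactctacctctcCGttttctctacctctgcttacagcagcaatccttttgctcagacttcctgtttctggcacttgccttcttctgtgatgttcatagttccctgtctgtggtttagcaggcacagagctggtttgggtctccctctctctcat
Id3, chr4:136143572-136143871, plus strand: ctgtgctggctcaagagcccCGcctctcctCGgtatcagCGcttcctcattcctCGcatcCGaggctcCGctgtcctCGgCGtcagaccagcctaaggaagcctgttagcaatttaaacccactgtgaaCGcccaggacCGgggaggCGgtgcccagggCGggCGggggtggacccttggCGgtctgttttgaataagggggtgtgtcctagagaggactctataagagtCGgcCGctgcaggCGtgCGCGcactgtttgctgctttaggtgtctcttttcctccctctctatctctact
The Il7r window held 1 CG pair at a GC content of 45.7%, and only 5.78% of the 27025 genes of the table had fewer, against a median of 7. The Id3 window held 19 at 60.0% GC, Id2 21, Lef1 18 in its first entry, Bcl2 44 and Tcf7 45 in its first entry. The letters CTTTGA, a core that TCF and LEF factors bind, were searched on both strands and were present in 1 of the 4 Lef1 windows and in none of the windows of the other genes, against 16.2% of all genes. The E-box letters CAGCTG, which E proteins bind, were present in the Id2 window, in 1 of the 2 Tcf7 windows and in 1 of the 4 Lef1 windows, against 16.1% of all genes. These matches are letters only and were not tested for binding.

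Il7r (ENSMUSG00000003882; chromosome 15, 9505788 to 9530176, GRCm38) was mostly a myeloid message in this library. Of its 1048 UMIs, 921 lay in myeloid-like cells (87.9%, 85.8 to 89.8), 81 in T and NK-like cells and 17 in tumor-like cells. The level was 99.1 CPM in T and NK-like cells (78.7 to 123) and 58.8 CPM in myeloid-like cells (55 to 62.7), a ratio of 1.69 (1.33 to 2.12). The values were 53.5 CPM against 58.8 CPM when cells were taken one at a time, by UMIs of at least 2 T or NK genes in place of clusters. That gate also took in cells of other classes: tumor-like cells numbered 1717 with it in place of 1729. The turned order is therefore not one of lymphoid cells alone. The myeloid-like share was 54.8% with 10 neighbors in the clustering, in which 1265 in place of 1585 cells met the myeloid lists. The level of 58.8 CPM in myeloid-like cells was above the 0.137 CPM that the median T-marker share would give. In tumor-like cells Il7r stood at 0.225 CPM (0.131 to 0.360), below the 0.330 CPM that the median myeloid-marker share would give, and this is read as background.

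Inside the myeloid-like cells, Il7r was concentrated in 1 group of macrophages. The 424 macrophage-like cells led by Npy, Atp6v0d2 and Mmp12 held 585 of the UMIs, in 201 cells, at 115.8 CPM (107 to 126). This was 3.66 times the level of the other myeloid-like cells (3.19 to 4.20), and its interval overlapped that of T and NK-like cells, with a ratio of 1.17 (0.925 to 1.49). The 40 cells led by Ccr7 and Ccl22 had 104 CPM (75.4 to 140.3), and the intervals of these 2 groups overlapped. Monocyte-like cells led by Chil3 and Ly6c2 had 42.1 CPM (32.5 to 53.5), cycling macrophage-like cells 28.9 CPM (23.1 to 35.7) and the largest macrophage-like group, led by Klra17, 25.6 CPM (21.5 to 30.1). In the 20 macrophage-like cells led by Lyve1 and Cd163 no UMI was counted, which allows up to 20.9 CPM at 3 counts. A low-depth unnamed cluster of 330 cells led by Mt3 and Ctsk, which shares Atp6v0d2 among its leading genes with the Npy-led macrophages, had 35.6 CPM (23.1 to 52.6). Among the T and NK-like subclusters, the Penk-led one lay above the Npy-led macrophages, at 226 CPM (158 to 315). The Cd8a-led one had 93.4 CPM (63.9 to 132), the low-depth one 91.5 CPM (39.5 to 180) and the Gzme-led one 25.8 CPM (9.47 to 56.2).

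Cells with at least 1000 UMIs were thinned to 1000 and the rest left out, among them 31 of the 168 T and NK-like cells. After thinning, 14.6% of T and NK-like cells still had an Il7r UMI (20 of 137), 4.42% of myeloid-like cells (70 of 1585) and 0.0579% of tumor-like cells (1 of 1727). Before thinning the shares were 31.0%, 24.7% and 0.925%. Tumor-like cells, which should lack the gene, give the background of this share, and both immune classes stood above it. The highest count in 1 cell was 18 UMIs, in a myeloid-like cell, against 5 in a T or NK-like cell.

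Of the other genes of interleukin 7 signalling, 7 of the 9 listed were at 2 or more times the level of other cells in T and NK-like cells, with a list median of 3.16. Over all genes tested the share was 16.5% and the median ratio 0.747, and the counts of partner genes below stand beside these values too. Il2rg, the chain that pairs with Il7r, was at 253 CPM in T and NK-like cells, 108 CPM in myeloid-like and 22.4 CPM in tumor-like cells. Crlf2, the chain that pairs with Il7r to bind the cytokine TSLP, was at 201 CPM in T and NK-like and 170.1 CPM in myeloid-like cells. The kinase Jak3 followed with 36.7 and 16.8 CPM. The cytokine Il7 itself had 86 UMIs in the library, 76 of them in tumor-like cells at 1.0 CPM, and Tslp had 13.

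**Figure D2:**
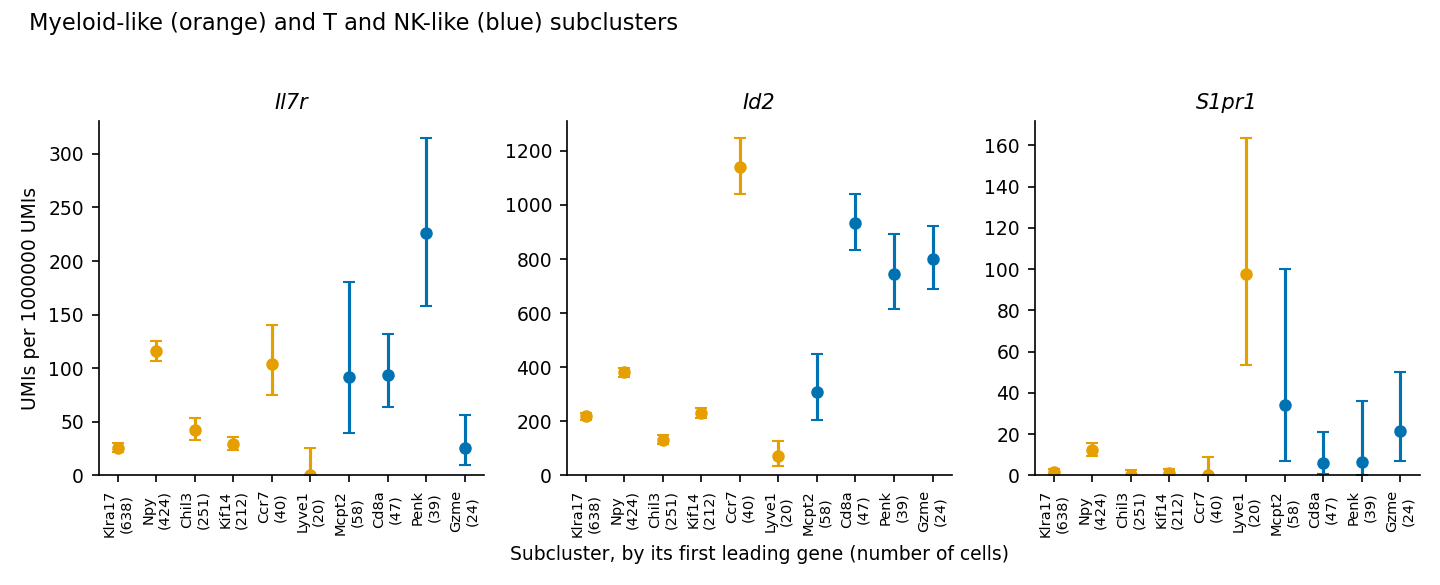
Points give the level of Il7r, Id2 and S1pr1 (vertical axes, UMIs per 1000000 UMIs) in the 6 myeloid-like and 4 T and NK-like subclusters, named by their first leading gene, with exact 95% counting intervals. Il7r is highest in the Penk-led lymphoid cells (226 CPM), and in the Npy-led macrophages (115.8 CPM) it lies at the height of the Cd8a-led T cells (93.4 CPM). Id2 is highest in the Ccr7-led cells (1141 CPM), and S1pr1 is highest in the Lyve1-led macrophages (97.5 CPM).

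Tcf7 (ENSMUSG00000000782; chromosome 11, 52252371 to 52283014) and Lef1 (ENSMUSG00000027985; chromosome 3, 131110471 to 131224356) had alike distributions over the cell classes. Tcf7 had 567 UMIs, of which 529 lay in tumor-like cells (93.3%, 90.9 to 95.2), 23 in T and NK-like cells and 5 in myeloid-like cells. Lef1 had 282 UMIs, with 240 in tumor-like cells (85.1%, 80.4 to 89.1), 23 in T and NK-like cells and 8 in myeloid-like cells. Per molecule sequenced, both were still highest in T and NK-like cells, at 28.1 CPM each (17.8 to 42.2). Tumor-like cells had 6.99 CPM of Tcf7 (6.41 to 7.61) and 3.17 CPM of Lef1 (2.78 to 3.60), which put the T and NK-like level at 4.03 times (2.53 to 6.11) and 8.87 times (5.52 to 13.6) the tumor-like one.

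The tumor-like counts were spread thinly over many cells. Tcf7 had a UMI in 409 of 1729 tumor-like cells (23.7%) and never more than 5 in a cell, and Lef1 in 189 cells with at most 4. At the median T-marker share, T and NK-like RNA would give 0.0160 CPM of either gene in tumor-like cells, where 6.99 and 3.17 CPM were measured. In myeloid-like cells Tcf7 was at 0.319 CPM (0.104 to 0.745), an interval that covers the 0.458 CPM that tumor RNA would give there at the median tumor-marker share, and this is read as background. After thinning, Tcf7 was seen in 4.38% of T and NK-like cells (6 of 137), 0.926% of tumor-like cells (16 of 1727) and 0 of 1585 myeloid-like cells, which allows up to 0.189%.

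Among lymphoid cells, 13 of the 23 Tcf7 UMIs and 14 of the 23 Lef1 UMIs lay in the 24 cells of the NK-like subcluster, led by granzymes, Xcl1 and Ncr1. The levels there were 55.9 CPM for Tcf7 (29.8 to 95.6) and 60.2 CPM for Lef1 (32.9 to 101), against 14.6 CPM of each in the Cd8a-led subcluster (4.74 to 34.1). Of its 24 cells, 15 had a UMI of Cd3d, Cd3e, Cd3g or Trac, among them 6 of the 7 cells with Tcf7 and 5 of the 9 with Lef1. Of the 14 T and NK-like cells with Tcf7, 8 also had Lef1. In tumor-like cells, 58 of the 409 cells with Tcf7 had Lef1. A group of 107 cells led by long noncoding RNAs such as Mir99ahg had 17.0 CPM of Lef1 (7.34 to 33.5) and 6.38 CPM of Tcf7 (1.32 to 18.6).

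Of 8 partners of TCF and LEF, 3 were at 2 or more times the level of other cells in T and NK-like cells and 3 at 0.5 times or less. The related factors Tcf7l1 and Tcf7l2 each had 1 UMI in T and NK-like cells, while Tcf7l1 stood at 13.7 CPM in tumor-like cells and Tcf7l2 at 51.3 CPM in myeloid-like cells. Axin2, a target gene of the Wnt pathway, had 60 of its 73 UMIs in tumor-like cells (0.793 CPM) and 5 in T and NK-like cells (6.12 CPM). Ctnnb1, the co-activator beta-catenin, was at 73.4 CPM in T and NK-like, 75.7 CPM in myeloid-like and 41.2 CPM in tumor-like cells.

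Ccr7 (ENSMUSG00000037944; chromosome 11, 99144196 to 99155077) was the rarest of the 8 genes and rested on very few cells. Of 104 UMIs, 89 lay in myeloid-like cells, 10 in T and NK-like cells and 5 in tumor-like cells. In 5 alternative clusterings or filters the myeloid-like share was between 3.67% and 3.85%, not 85.6%. A single group of 40 myeloid-like cells held 85, at 206 CPM (164 to 255), and within it all 85 came from 4 cells with 29, 27, 27 and 2 UMIs. Those 4 cells also held 94 of the 99 UMIs of Ccl22 and 93 of the 98 of Fscn1 in the group, both genes of mature dendritic cells, and the other 36 cells had 14.1 CPM of each (4.57 to 32.8). Ccl22 was seen in 3 of the 4 cells and Fscn1 in 2. Il7r was at 279 CPM in the 4 cells (159 to 452) and 76.0 CPM in the other 36 (50.1 to 111).

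In T and NK-like cells, 7 of the 10 Ccr7 UMIs lay in the low-depth subcluster of 58 cells. None of the 6 cells that carried them had a UMI of Cd3d, Cd3e, Cd3g, Trac, Trbc1 or Trbc2, and 1 had a B-cell gene. The other 3 Ccr7 UMIs fell singly in the Cd8a-led, Penk-led and Gzme-led subclusters. Without the low-depth subcluster the T and NK-like level of Ccr7 was not 12.2 CPM (5.87 to 22.5) but 4.11 CPM, and its share was not 9.62% but 2.88%. Of the ligands of Ccr7, Ccl21a had 973 of its 999 UMIs in 6 cells of the endothelial-like subcluster, 810 of them in 1 cell, and Ccl19 had 9 of its UMIs in the stromal subcluster led by Cxcl13. Both ligand names stand for 2 near-identical gene copies in the table, whose reads cannot be told apart with certainty.

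Bcl2 (ENSMUSG00000057329; chromosome 1, 106538178 to 106714274) had the highest T and NK-like share of UMIs of the 8 genes. T and NK-like cells had 354 CPM (314 to 397), 20.2 times the myeloid-like level of 17.5 CPM (ratio interval 17.1 to 23.9) and 41.2 times the tumor-like level of 8.59 CPM (35.7 to 47.4). Because the tumor-like cells hold so many molecules, 650 of the 1281 UMIs (50.7%, 48.0 to 53.5) were theirs all the same. After thinning, 24.8% of T and NK-like cells had a Bcl2 UMI, 1.26% of myeloid-like and 1.27% of tumor-like cells. The low-depth subcluster led by mast and B-cell genes had the highest level, 732 CPM (564 to 935), with a UMI of Cd3d, Cd3e, Cd3g or Trac in 12 of its 29 cells with Bcl2, and without it the T and NK-like level was 308 CPM. With cells taken one at a time, which also took in tumor-like cells, the T and NK-like level was 168 CPM. The Cd8a-led subcluster had 388 CPM (325 to 460), the NK-like one 340 CPM (269 to 423) and the Treg-like one, led by Penk, Areg, Il13 and Foxp3, 84.1 CPM (44.8 to 144). The Treg-like name is loose: Il13 and Il2, also among its leading genes, are not on the Treg list. The whole class held 20 cells called by Foxp3, against 39 cells in this subcluster.

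Other genes of the Bcl2 family had other patterns. Mcl1, a relative that also holds back cell death, was at 578 CPM in myeloid-like and 180 CPM in T and NK-like cells. Bcl2l1 was at 65.6 CPM in myeloid-like and 33.0 CPM in T and NK-like cells. The pro-death partner Bcl2l11 was higher in T and NK-like cells, at 96.7 CPM against 33.1 CPM in myeloid-like and 8.08 CPM in tumor-like cells. Bax had 180 CPM in T and NK-like, 235 CPM in myeloid-like and 153 CPM in tumor-like cells. In all, 3 of 9 family genes were at 2 or more times the level of all other cells pooled, Bcl2l11 and the near-identical copies Bcl2a1b and Bcl2a1d, whose reads may be split between them. Bcl2a1b was still higher in myeloid-like cells, at 875 CPM against 407 CPM.

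Id2 (ENSMUSG00000020644; chromosome 12, 25093799 to 25097140) and Id3 (ENSMUSG00000007872; chromosome 4, 136143497 to 136145755) divided the cell types between them. Id2 had 5908 UMIs, 4500 of them in myeloid-like cells (76.2%, 75.1 to 77.2), 648 in T and NK-like and 522 in tumor-like cells. Its level was 793 CPM in T and NK-like cells (733 to 856), 287 CPM in myeloid-like cells (279 to 296) and 6.90 CPM in tumor-like cells (6.32 to 7.52). Id3 had 4268 UMIs, 3693 in tumor-like cells (86.5%, 85.5 to 87.5) at 48.8 CPM (47.3 to 50.4), 123 in myeloid-like cells at 7.85 CPM (6.52 to 9.37) and 2 in T and NK-like cells at 2.45 CPM (0.296 to 8.84). The Id3 level in T and NK-like cells lies below the 4.28 CPM that tumor RNA would give there at the median tumor-marker share, so it is read as background. With cells taken one at a time, which also took in tumor-like cells, the T and NK-like level was 32.4 CPM for Id3 and 427 CPM for Id2. The interval still allows a low level of Id3 in T cells.

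Among myeloid-like cells, Id2 was highest in the 40 cells led by Ccr7 and Ccl22, at 1141 CPM (1040 to 1249), or 1.44 times the T and NK-like level (1.28 to 1.62). It did not rest on the 4 cells with Ccr7, since the other 36 cells had 1081 CPM (975 to 1194) and the 4 had 1515 CPM (1213 to 1869). The Npy-led macrophages followed with 381 CPM (364 to 398), cycling macrophages with 231 CPM (214 to 249), Klra17-led macrophages with 218 CPM (206 to 231), monocyte-like cells with 131 CPM (114 to 151) and Lyve1-led macrophages with 69.6 CPM (33.4 to 128). Among the T and NK-like subclusters, the Cd8a-led one had 934 CPM (834 to 1042), the NK-like one 800.0 CPM (689 to 924) and the Treg-like one 744 CPM (614 to 893), with overlapping intervals, while the low-depth one had 309 CPM (203 to 449).

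Id3 was highest in stroma. The 11 pericyte-like cells led by Higd1b and Rgs5 had 138 UMIs at 1028 CPM (863 to 1214), with up to 49 UMIs in 1 cell. A group of 15 fibroblast-like cells led by Rian and Meg3 had 1001 CPM (620 to 1530), the Cxcl13-led stromal group 743 CPM (481 to 1097), the 36 endothelial-like cells 705 CPM (548 to 894) and the 26 fibroblast-like cells led by Sfrp4 and Cthrc1 526 CPM (446 to 616), where 1 cell alone held 100 of the 154 UMIs. Each neighbor in this order had an overlapping interval. Of 18 Id3 UMIs in the Ccr7-led group all lay in 1 cell. Of the other Id and E protein genes, Id1 was at 519 CPM in endothelial-like cells, Id4 had 35 UMIs in all, and none of the 5 listed genes was at 2 times the level of other cells in T and NK-like cells. The E protein genes Tcf3, Tcf4 and Tcf12 were at 34.3, 39.2 and 40.4 CPM in T and NK-like cells.

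S1pr1 (ENSMUSG00000045092; chromosome 3, 115710433 to 115715072) was an endothelial gene by level. It had 290 UMIs, 147 in tumor-like cells (50.7%, 44.8 to 56.6), 86 in myeloid-like cells and 11 in T and NK-like cells. The 36 endothelial-like cells led by Ccl21a, Cldn5 and Tie1 had 35 UMIs at 363 CPM (253 to 505), and the 20 Lyve1-led macrophages had 14 UMIs, in 10 cells, at 97.5 CPM (53.3 to 164). The Npy-led macrophages had 12.1 CPM (9.24 to 15.5), 5.13 times the other myeloid-like cells (3.17 to 8.52), and T and NK-like cells had 13.5 CPM (6.72 to 24.1). The tumor-like level was 1.94 CPM (1.64 to 2.28), with up to 8 UMIs in 1 cell. In monocyte-like and Ccr7-led cells no UMI was counted, which allows up to 1.91 and 7.27 CPM.

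In its pathway, 2 of the 9 genes with at least 10 UMIs were at 2 or more times the level of other cells in T and NK-like cells, and 5 were at 0.5 times or less. With 16.5% of all genes tested at 2 or more times, nothing is read from this count. S1pr4, the receptor that T cells carry beside S1pr1, had 48 of its 56 UMIs in T and NK-like cells (58.7 CPM), more than the 11 UMIs of S1pr1 there. Cd69, which takes S1pr1 off the cell surface, was at 174 CPM in T and NK-like and 39.1 CPM in myeloid-like cells. Klf2, the factor that drives S1pr1, was at 103 CPM in T and NK-like and 348 CPM in myeloid-like cells. S1pr2 was mostly tumor-like, with 1650 UMIs there, and S1pr3 was seen in pericyte-like cells (134 CPM) and Sfrp4-led fibroblast-like cells (61.5 CPM).

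**Figure D3:**
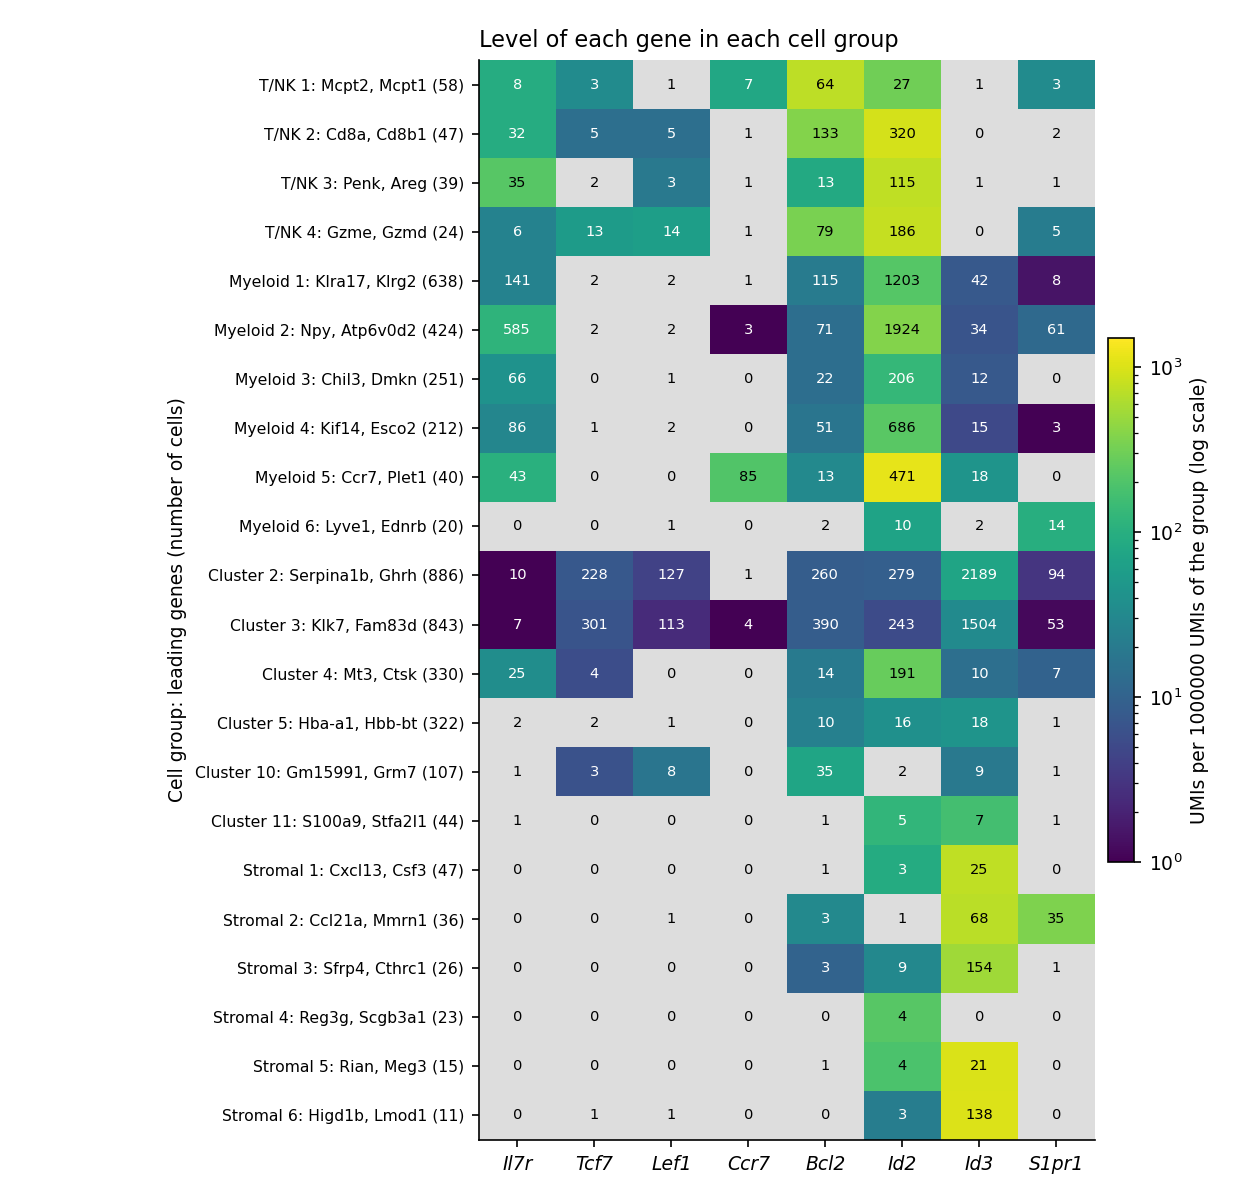
Colors give the level of each gene (UMIs per 1000000 UMIs, log scale) in each of the 22 cell groups, numbers give the UMIs behind it, and gray marks groups with fewer than 3 UMIs. Il7r is colored in all 4 lymphoid and 5 of the 6 myeloid rows. Tcf7 and Lef1 have most of their UMIs in the tumor-like clusters 2 and 3 (228 and 301 for Tcf7, 127 and 113 for Lef1) and rest on at most 14 UMIs in any lymphoid row, and Id3 has its highest levels in 5 of the 6 stromal rows, with 138 UMIs in 11 pericyte-like cells and 0 in the stromal 4 row.

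The 2 tumor-like clusters differed for some members and not for others. The 843 cells of the cycling cluster, led by Aurka and Ube2c, had 110 CPM of Mki67, a gene of dividing cells, against 12.1 CPM in the 886 cells led by Serpina1b and Ogn. The Id3 level was 72.6 CPM (69.6 to 75.7) in the less cycling cluster and 33.1 CPM (31.4 to 34.8) in the cycling one, a ratio of 2.20 (2.05 to 2.35). S1pr1 was 2.67 times higher in the less cycling cluster (1.89 to 3.82), Id2 1.73 times (1.45 to 2.07) and Lef1 1.70 times (1.31 to 2.20). For Tcf7 the ratio was 1.14 (0.958 to 1.36) and for Bcl2 1.01 (0.856 to 1.18), and both intervals covered 1.

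The lymphoid cells were then split by UMIs of genes that are no members, giving 63 cells with Cd8a or Cd8b1, 35 with Cd4 or Foxp3, 9 NK cells with at least 2 NK genes and no UMI of Cd3d, Cd3e, Cd3g, Trac, Cd4, Cd8a or Cd8b1, and 61 others. All 9 NK cells had a UMI of Trbc1 or Trbc2, which the gate did not use. Bcl2 differed between the subsets. The Cd8 subset had 146 UMIs in 48 of 63 cells, at 396 CPM (334 to 465), the NK subset 46 UMIs in 8 of 9 cells, at 377 CPM (276 to 503), and the Cd4 or Foxp3 subset 1 UMI in 35 cells, at 7.01 CPM (0.177 to 39.0). The 61 other cells had 96 Bcl2 UMIs, at 523 CPM (423 to 638), and they also held 12 of the 23 Tcf7 UMIs and 8 of the 10 Ccr7 UMIs, so the named subsets leave out much of these genes. The ratio of the Cd8 to the Cd4 or Foxp3 subset was 56.5 with an interval from 9.98 to 2246. Thinned to 1000 UMIs per cell, the counts were 27 UMIs in 55 Cd8 cells and 0 in 35 Cd4 or Foxp3 cells in 1 random draw, so the contrast was present at equal depth as well.

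Il7r ran the other way. It was at 224 CPM in the Cd4 or Foxp3 subset (153 to 317), with 32 UMIs in 20 of 35 cells, and at 111 CPM in the Cd8 subset (79.7 to 151), a Cd8 to Cd4 or Foxp3 ratio of 0.496 (0.305 to 0.813). After thinning the ratio was 1.06 (0.349 to 3.55) on 10 and 6 UMIs, and a difference was not detectable at that depth. The 20 Foxp3 cells alone had 225 CPM (136 to 352). In the NK subset no Il7r UMI was counted, which allows up to 24.6 CPM at 3 counts. Id2 did not differ detectably between the Cd8, Cd4 or Foxp3 and NK subsets, with a Cd8 to Cd4 or Foxp3 ratio of 1.20 (0.959 to 1.5) and an NK to Cd8 ratio of 0.951 (0.754 to 1.19). Id3 had 0 UMIs in the Cd8 subset (up to 8.13 CPM), and Tcf7, Lef1, Ccr7 and S1pr1 had at most 7 UMIs in any of these 3 subsets.

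**Figure D4:**
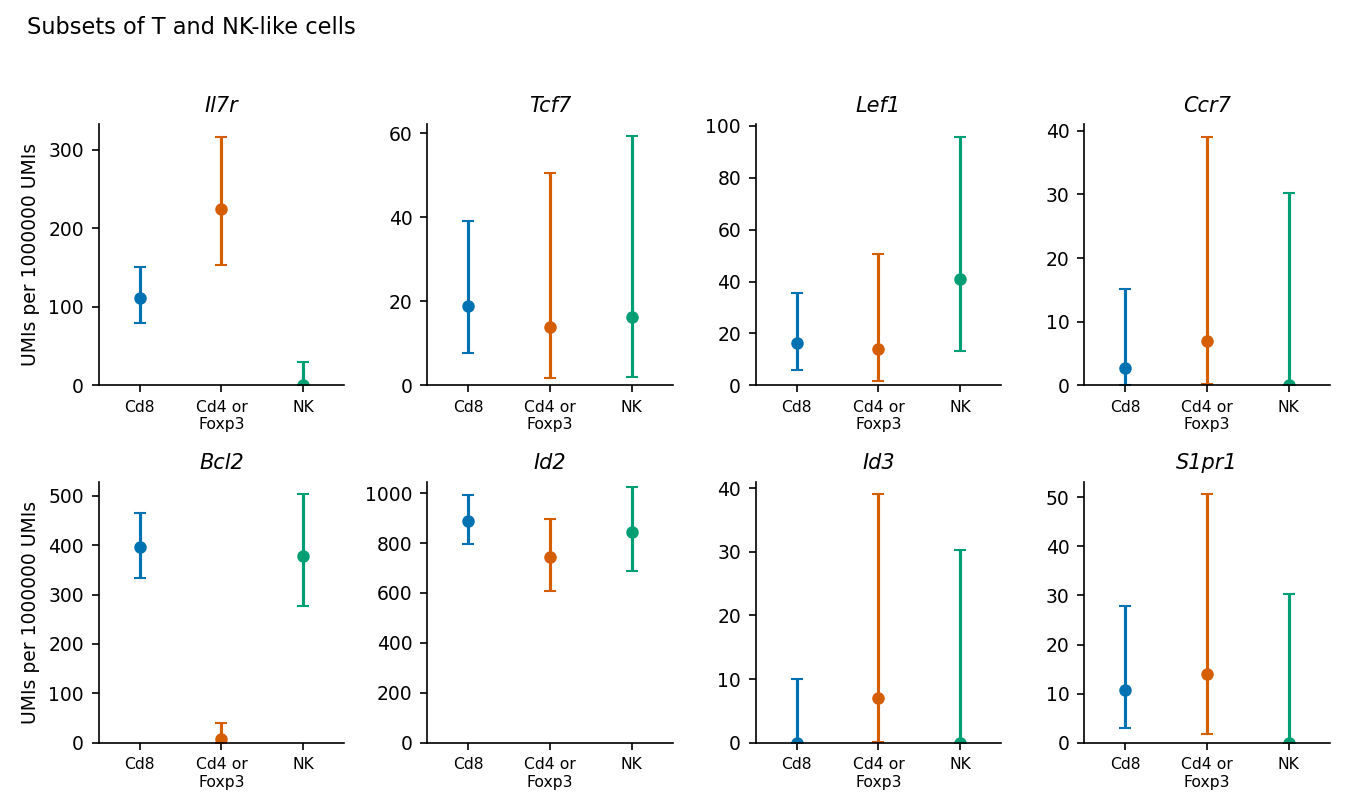
Points give the level of each gene (vertical axes, UMIs per 1000000 UMIs) in 63 Cd8 cells, 35 Cd4 or Foxp3 cells and 9 NK cells, with exact 95% counting intervals. Bcl2 is at 396 CPM in Cd8 cells and 7.01 CPM in Cd4 or Foxp3 cells, and Id2 lies between 743 and 889 CPM in all 3.

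Among the 118 cells with a Cd3 gene or Trac, the number of inhibitory receptor genes with a UMI (Pdcd1, Lag3, Havcr2 and Tigit) split the members. The 33 cells with none had 13 Tcf7 UMIs (112 CPM, 59.7 to 192) and 13 Lef1 UMIs (112 CPM, 59.7 to 192). The 31 cells with 1 had 4 and 3 (36.9 and 27.7 CPM), and the 54 cells with 2 or more had 3 and 1 (7.38 and 2.46 CPM). The ratio of none to 2 or more was 15.2 for Tcf7 (4.18 to 83.2) and 45.6 for Lef1 (6.85 to 1938). Of the 118 cells, 15 belonged to the NK-like subcluster. They made up 6 of the 12 cells with Tcf7 and 5 of the 12 with Lef1. How they fell over the receptor groups was not tested. S1pr1 stood at 51.8 CPM in cells with none (19.0 to 113) and 2.46 CPM in cells with 2 or more (0.0623 to 13.7), on 6 UMIs and 1.

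Id2 had the reverse order, with 423 CPM in cells with no inhibitory receptor (313 to 559), 701 CPM with 1 (553 to 878) and 984 CPM with 2 or more (890 to 1086), a ratio of none to 2 or more of 0.430 (0.313 to 0.579). Il7r was at 181, 175 and 93.5 CPM, with a ratio of 1.94 (1.08 to 3.39), and Bcl2 at 483, 231 and 305 CPM, with a ratio of 1.58 (1.13 to 2.19). The gate depends on depth, since a shallow cell can miss a receptor: the median was 3241 UMIs in cells with none and 6041 UMIs in cells with 2 or more. With each cell thinned after gating, the ratio was 9.64 for Tcf7 (1.08 to 456) on 5 and 1 UMIs and 0.472 for Id2 (0.229 to 0.901), while Lef1 had 2 UMIs and 0. For S1pr1 the thinned ratio was 3.86 (0.201 to 228) on 2 and 1 UMIs, against 21.0 before, and for Il7r 1.16 (0.346 to 3.51) on 6 and 10 UMIs. Both intervals covered 1, so neither difference was detectable at equal depth. The thinned Bcl2 ratio was 2.27 (1.13 to 4.61) on 20 and 17 UMIs. Within the 63 Cd8 cells, the 22 with 0 or 1 receptor had 6 UMIs each of Tcf7 and Lef1, and the 41 with 2 or more had 1 and 0. Their median depths were 1434 and 7197 UMIs. After thinning, Tcf7 was seen in 2 of 14 and 0 of 41 of these cells, and Lef1 in 0 of both. So few counts do not resolve the split within Cd8 cells at equal depth.

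Genes outside the list went with either side, and the listed quiescence and memory genes did not all go one way. Klf2 was at 406 CPM in cells with no inhibitory receptor and 24.6 CPM in those with 2 or more. Cd27 was at 94.9 and 177 CPM and Il2rb at 414 and 568 CPM, both lower in cells with none, while Bach2, at 8.63 and 7.38 CPM, rested on 1 and 3 UMIs. Tox, a factor of exhausted T cells, was at 17.3 and 93.5 CPM. The effector gene Gzmb was at 1346 and 1361 CPM, and Prf1, which encodes perforin, was at 509 and 856 CPM. In cells with none, the highest cell held 91 of the 156 Gzmb UMIs, and for Prf1 it held 42 of 59. In cells with 2 or more, it held 132 of 553 and 62 of 348. As a mean over cells, Gzmb was at 741 and 1181 CPM and Prf1 at 309 and 713 CPM. Of the 11 listed quiescence and memory genes, 9 were at 2 or more times the level of other cells in T and NK-like cells, and of the 13 measured effector and inhibitory genes, 12 were. Over all genes tested the share was 16.5%.

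**Figure D5:**
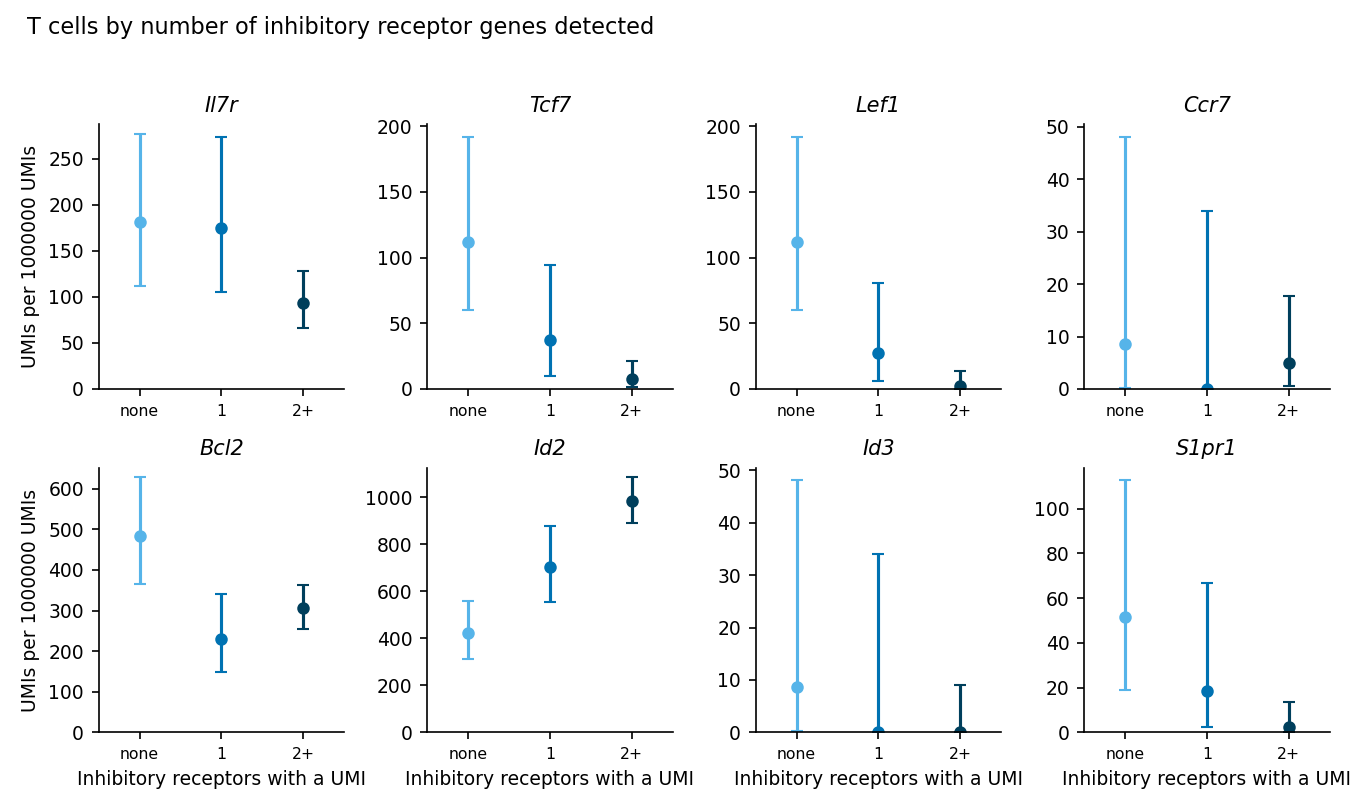
Points give the level of each gene (vertical axes, UMIs per 1000000 UMIs) in cells with a Cd3 gene or Trac, with exact 95% counting intervals. The cells are split by UMIs of none, 1 or 2 and more inhibitory receptor genes (33, 31 and 54 cells), and 15 of them belong to the NK-like subcluster. Tcf7, Lef1 and S1pr1 step down from left to right, Id2 steps up from 423 to 984 CPM, and Ccr7 and Id3 rest on at most 2 UMIs.

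Across the 22 cell groups, the genes most like each member were listed by the Pearson correlation of log2(CPM + 10), among 12874 genes with at least 50 UMIs. All groups come from the same library and differ in depth, and the correlations are a description. Il7r was closest to Cytip (0.904), Sema4d (0.894) and Itgb7 (0.881). Tcf7 was closest to Txk (0.885), Eomes (0.881) and Klra6 (0.879), and Lef1 to Vps37b (0.824), with Tcf7 itself next at 0.821. Ccr7 was closest to Zbtb46 (0.925), a dendritic cell factor, and Bcl2 to Ikzf3 (0.888), a lymphocyte factor. Id2 was closest to Rac2 (0.849), Id3 to Rhoj (0.936) and S1pr1 to Lyve1 (0.856), a gene of lymphatic endothelium and some macrophages.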

How the data were processed

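The authors deposited raw UMI counts, 1 value for each gene in each cell that Cell Ranger called, with reads aligned to GRCm38/mm10. Version 5.0.1 is written in the header, and an earlier one in the methods. The members and gene lists were chosen with earlier results of these data known. Cells with fewer than 200 genes or over 20% mitochondrial UMIs were dropped (667 removed), and the 197 cells with the highest doublet scores (2 simulated doublets per cell, 0.8% per 1000 cells) were left out. For clustering, each cell was scaled to a sum of 10000 and log-transformed, and 2000 variable genes without the 8 members, 30 principal components, 20 neighbors and a Leiden resolution of 0.5 gave 12 clusters. T and NK-like cells (resolution 1.0), myeloid-like cells and a mixed stromal cluster were clustered again, giving 22 groups. Clusters were named from marker lists that hold no member, when at least 3 list genes were raised 2 times with 5 UMIs and at least 50% of the cells carried list genes. Tumor-like clusters were named by another rule, Shisal2b and Rhox5 at 5 or more times the myeloid-like level. They also needed a median depth of at least 0.333 times that of all kept cells, so shallow clusters could not be called tumor-like. Cells gave 511 to 231902 UMIs, 106631000 in all, and all 5307 barcodes were distinct. For named genes, all members and fixed partner lists were taken, and the 3 most alike genes per member. Intervals were exact Poisson for levels, Clopper-Pearson for shares and binomial for ratios, at 95%, and a count of 0 was given the limit of 3 counts. Ratios and intervals were run on counts simulated as Poisson draws. These lack the clumping of UMIs in single cells, so they do not show how the intervals hold for these data. With 1 library there is no test between groups. Gene positions came from GENCODE M21 and promoter windows from RefSeq. The alternatives covered filters, clustering and weighting of cells. Work was done in Python 3.11.15 with leidenalg 0.10.2, igraph 0.11.9 and scikit-learn 1.9.0 for clustering, and pandas 2.3.3, scipy 1.17.1, numpy 2.4.6 and matplotlib 3.10.9 for the rest.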

Additional observations from a re-analysis of the deposited data

Results flagged for a closer look

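The 864 cells left out by the filters and the doublet step also held UMIs of all 8 genes, and none of the comparisons used them. They had 100 UMIs of Il7r (8.71% of its total), 75 UMIs of Tcf7 (11.7% of its total), 52 UMIs of Lef1 (15.6% of its total), 6 UMIs of Ccr7 (5.45% of its total), 247 UMIs of Bcl2 (16.2% of its total), 567 UMIs of Id2 (8.76% of its total), 555 UMIs of Id3 (11.5% of its total) and 40 UMIs of S1pr1 (12.1%). Bcl2 and Lef1 had the largest shares left out, and Ccr7 the smallest. For comparison, 3.14% of the UMIs of Trac and 9.33% of those of Rhox5 lay in these cells. Which cell types they came from was not tested.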

How the results depend on the processing

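The T and NK-like share of each gene stayed within the counting interval of the reported value in 95 of 120 cases. The myeloid-like share did so in 79 of 112 cases and the tumor-like share in 96 of 112. The T and NK-like share was over 50% for Bcl2 as a mean over cells and for Ccr7 in thinned cells, and below it for all genes in the other alternatives. As a mean over cells, the share was 19.1% for Il7r, 25.6% for Tcf7, 29.5% for Lef1, 42.7% for Ccr7, 56% for Bcl2, 15.2% for Id2 and 11.1% for S1pr1. With cells thinned to 1000 UMIs, the share was 19.2% for Il7r, 25.9% for Tcf7, 25% for Lef1, 58.3% for Ccr7, 37.3% for Bcl2, 15.6% for Id2, 0.538% for Id3 and 15.4% for S1pr1. With at most 10% mitochondrial UMIs, the share was 2.94% for Ccr7 and 19.1% for Bcl2. With at least 500 genes per cell, the share was 3.85% for Ccr7. With doublets kept, the share was 4.59% for Ccr7. With 20 principal components, the share was 3.85% for Ccr7. With T and NK-like cells taken cell by cell, which also took in tumor-like cells, the share was 2.88% for Ccr7, 19.8% for Bcl2 and 1.15% for Id3. Without the low-depth subcluster, added once the data had been seen, the share was 2.88% for Ccr7 and 17.6% for Bcl2. The mean over cells gives shallow cells the weight of deep ones by construction, and so does thinning for cells with at least 1000 UMIs. The shallow cells include the low-depth subcluster, where 27 of 58 cells had at least 1000 UMIs. No cell with Ccr7 in it had a UMI of a Cd3 gene, Trac, Trbc1 or Trbc2. The other causes were not tested. The count of members at 2 or more times the level of other cells was 7, with 16.5% of all genes tested, or 6 with T and NK-like cells taken cell by cell (11.1% of all genes) and 5 at 5 times (6.99%). No paired analysis was possible because there is 1 library. The counts of Tcf7, Lef1, Ccr7 and S1pr1 in T and NK-like cells, 10 to 23 UMIs, limit what can be said of them within subsets.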
